A study of Mus musculus with 8 samples.

Results

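The genes described here encode giant and cross-linking proteins of the sarcomere, the contractile unit of striated muscle: Ttn (titin), Neb (nebulin), Mybpc1 and Mybpc2 (slow and fast myosin-binding protein C), Myom1 and Myom2 (myomesin and M-protein), Myoz1 and Myoz2 (fast and slow calsarcins, also called myozenins) and Des (desmin). They were chosen by name, and all 9 were found by their mouse Ensembl identifiers among the 23008 mouse genes of the deposited table. All 9 passed the minimum mean of 10 normalised reads and were among the 15960 genes tested.

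The 8 RNA libraries came from gastrocnemius, a calf muscle made mostly of fast fibres, of wild-type C57BL/6J mice. All mice had received GNDM, an epigenome editing construct for gene activation, by tail vein in AAV9, a viral vector that infects striated muscle well. For 4 libraries the guide in the construct was m31, aimed at Lama1, and for the other 4 it was a non-targeting control guide, so both groups had the virus and the editor. Muscle was taken 11 weeks after injection; the age at injection is given as 7 weeks in one label and as 7 to 12 weeks in another, and the dose is not given in the sources used here. Whether every library is from its own mouse is not stated in the labels, so the p-values describe spread among libraries that may be partly technical.

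In a sarcomere, titin runs as a molecular spring from the Z-disc, where thin filaments are anchored, to the M-band, where thick filaments are joined, and nebulin lies along the thin filament. Myosin-binding protein C decorates the thick filament and tunes the action of myosin, and the myomesins tie thick filaments together at the M-band. Calsarcins sit at the Z-disc, where they bind alpha-actinin and the phosphatase calcineurin, and desmin forms the intermediate filaments that hold neighbouring Z-discs in register. Mybpc1 and Myoz2 are the paralogues linked to slow fibres, and Mybpc2 and Myoz1 those of fast fibres.

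Libraries held 25157486 to 39210248 reads in mouse genes. Values are normalised reads, that is, reads divided by 1 size factor per library. The target gene Lama1 had 209, 295, 273 and 86.5 normalised reads in m31 replicates 1 to 4 and 4.18, 0, 2.25 and 0 in control replicates 1 to 4, so every m31 library was above every control library. The GNDM construct entry varied between libraries, with 12365, 24487, 15418 and 6157 normalised reads in m31 replicates 1 to 4. In control replicates 1 to 4 it had 11969, 13775, 37989 and 9802. The part of construct level in the members' levels was not tested. The 8 skeletal muscle markers, Acta1 and Ckm among them, were all present and summed to 3550653 to 4296488 normalised reads across m31 libraries and 3510211 to 4743494 across control libraries. Of 7 heart muscle markers, Nppa, Nppb and Nkx2-5 stayed under a mean of 10. The 4 that were tested all had positive estimates (median log2 difference 0.65), and none passed an adjusted p of 0.05. Markers of connective tissue and macrophages had positive estimates, 10 of 10 for fibroblast and matrix, 8 of 8 for tendon and 10 of 10 for macrophages (median log2 differences 0.89, 0.78 and 0.52; none passed an adjusted p of 0.05), and library m31 replicate 4 was highest in all 3 lists. The 10 fibroblast and matrix markers summed to 206541 normalised reads there, while m31 replicates 1 to 3 summed to 48321 to 65228 and the control libraries to 36089 to 67870. The 8 tendon markers summed to 12865, 21626, 21718 and 31774 normalised reads in m31 replicates 1 to 4, against 7926 to 16058 in the control libraries, and the 10 macrophage markers to 3688 to 8803 in m31 libraries and 2629 to 6284 in control libraries.

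No member passed the test for a difference between guides. By limma's moderated test on the log2(value + 1) scale, 0 of 9 members passed an adjusted p of 0.05 over all 15960 genes, and 0 had an unadjusted p under 0.05; in the same fit 0.00627% of all genes (1 gene, Lama1) passed in either direction. On the recovered reads, edgeR called 0 of the 9 (0.00618% of all genes) and DESeq2 0 of the 9 (0.104% of all genes), and both had 0 of them at an unadjusted p under 0.05. The adjusted p-values ran from 0.845 for Myom1 to 0.997 for Mybpc2. The groups overlapped for all 9, while 3.85% of all genes tested had groups that did not overlap.

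The members were abundant, so counting error was small beside the spread between libraries. Each member had between 1717 and 350888 reads in every library. Together they took 2.86 to 3.06% of the normalised reads in m31 libraries and 2.99 to 3.19% in control libraries. Their median log2 difference, m31 minus control, was -0.08, beside 0.01 over all genes tested. Estimates were negative for 8 members and positive for 1, where 48.7% of all genes had negative estimates. The 9 genes were measured in the same libraries and are not independent of each other. Marker lists of muscle had mostly negative estimates too, none of which passed: 10 of 10 slow fibre markers (median log2 difference -0.41), 8 of 8 skeletal muscle markers (-0.18) and 10 of 12 fast fibre markers (-0.17). All 12 fast fibre markers were present, and they summed to 4283302 to 5017630 normalised reads across m31 libraries and 4148222 to 5560364 across control libraries. The part of these lists, or of the connective tissue and macrophage markers with their positive estimates, in the members' estimates was not tested.

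**Figure D1:**
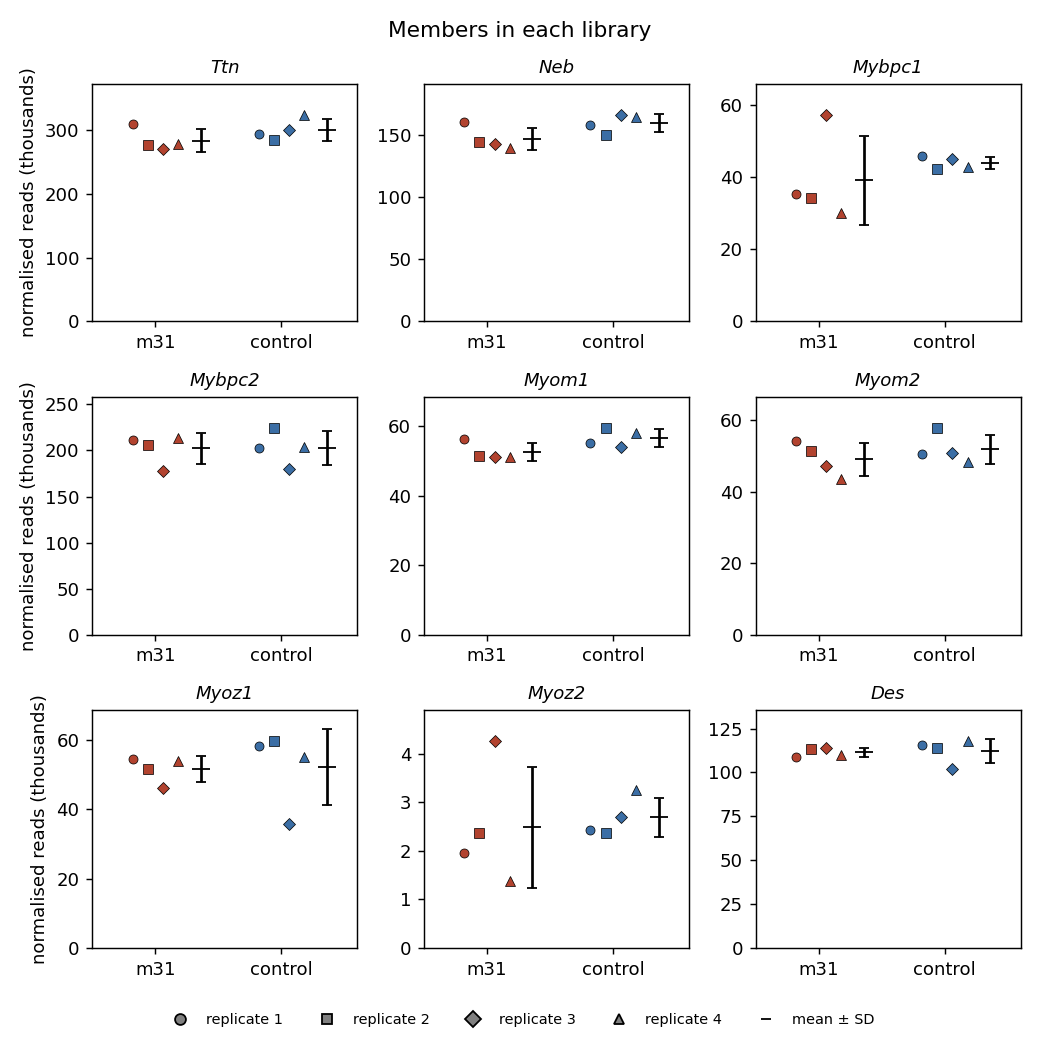
Normalised reads, in units of 1000, of each member in the 4 m31 libraries (left, red) and the 4 control libraries (right, blue), 1 symbol per replicate number, with mean and SD as black bars; every axis starts at 0. The groups overlap in all 9 panels, and Mybpc1 and Myoz2 spread most within m31, from 30087 to 57391 and from 1376 to 4253.

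Titin, the spring of the sarcomere and its largest protein, had 310366, 275961, 269832 and 278528 normalised reads in m31 replicates 1 to 4. In control replicates 1 to 4 it had 293682, 284426, 300526 and 324243. The lowest 3 of the 8 values were m31 libraries, and m31 replicate 1 lay above 3 of the control libraries. Ttn averaged 283672 ± 18166 with m31 and 300719 ± 17014 with the control guide (SD, n = 4 each), a log2 difference of -0.08 ± 0.12 (SE, limma adjusted p = 0.913). The 95% interval ran from 21.4% lower to 13.2% higher with m31. Ttn (ENSMUSG00000051747) lies on the minus strand of chromosome 2, from 76703980 to 76982547 in GRCm38. The GENCODE annotation gives it 345 separate exon blocks of 116825 bases in all. Its gene total cannot tell a change in which exons are used from a change in level.

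Nebulin, the protein along the thin filament, had 160510, 144384, 143035 and 140039 normalised reads in m31 replicates 1 to 4, against 158257, 150325, 166544 and 164663 in control replicates 1 to 4. Here m31 replicates 2, 3 and 4 were below every control library, and m31 replicate 1 was above control replicates 1 and 2. The log2 difference was -0.12 ± 0.10 (SE, limma adjusted p = 0.849), with an interval from 21.7% lower to 7.75% higher. Neb (ENSMUSG00000026950) lies on chromosome 2 as well, from 52136647 to 52378474 on the minus strand. Both genes were tightly held between libraries: their highest and lowest values among all 8 differed 1.20-fold for Ttn and 1.19-fold for Neb.

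The ratio of Neb to Ttn does not depend on a library's scaling and varied least of the 4 ratios compared. Neb equalled 51.7, 52.3, 53.0 and 50.3% of Ttn in m31 replicates 1 to 4 and 53.9, 52.9, 55.4 and 50.8% in control replicates 1 to 4. The m31 libraries lay within or just below the control range, with a log2 difference of the ratio of -0.04 ± 0.03 (SE). An exact permutation test (two-sided) gave p = 0.286, and adjusted p = 0.686 over the 4 ratios; the smallest p that the 70 arrangements allow is 0.0286.

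Of the myosin-binding proteins C, the fast paralogue had the smallest difference of all members. Mybpc2 had 210926, 205591, 178125 and 213740 normalised reads in m31 replicates 1 to 4 and 202327, 224366, 180072 and 203509 in control replicates 1 to 4. The lowest value of each group came from replicate 3, and the other 3 libraries of each group lay between 202327 and 224366. The log2 difference was -0.0027 ± 0.12 (SE, limma adjusted p = 0.997), with an interval from 17.1% lower to 20.2% higher.

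The slow paralogue, Mybpc1, varied among m31 libraries. It had 35260, 34145, 57391 and 30087 normalised reads in m31 replicates 1 to 4, against 45787, 42196, 45109 and 43002 in control replicates 1 to 4. The m31 libraries enclosed the control libraries, with 1 value above and 3 values below all of them. The SD was 12316 with m31 and 1700 with the control guide (n = 4 each), around means of 39221 and 44024. The log2 difference was -0.21 ± 0.17 (SE, limma adjusted p = 0.846), with an interval from 33.6% lower to 12.2% higher, and it was -0.41 without m31 replicate 3 and -0.10 without m31 replicate 4.

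At the Z-disc, the slow calsarcin had its extremes in the same libraries as Mybpc1. Myoz2, at far fewer reads than the other members, had 1949, 2366, 4253 and 1376 normalised reads in m31 replicates 1 to 4 and 2431, 2366, 2686 and 3258 in control replicates 1 to 4. Again m31 replicate 3 was the highest of all 8 libraries and m31 replicate 4 the lowest, 3.09-fold apart. Myoz2 averaged 2486 ± 1246 with m31 and 2685 ± 406 with the control guide (SD, n = 4 each). Its log2 difference was -0.22 ± 0.27 (SE, limma adjusted p = 0.893), with an interval from 43.6% lower to 29.9% higher. The direction rested on 1 library, since without m31 replicate 4 the difference was 0.02.

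The fast calsarcin, Myoz1, had 54294, 51519, 46178 and 53895 normalised reads in m31 replicates 1 to 4 and 58131, 59533, 35851 and 55092 in control replicates 1 to 4. Control replicate 3 was the lowest library and the other 3 control libraries were the highest, so the m31 libraries lay between them. The log2 difference was 0.01 ± 0.16 (SE, limma adjusted p = 0.995), with an interval from 20.8% lower to 27.4% higher, and it was -0.16 without control replicate 3 (adjusted p = 0.490).

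Slow and fast paralogues were also compared within each library. Mybpc1 equalled 16.7, 16.6, 32.2 and 14.1% of Mybpc2 in m31 replicates 1 to 4 and 22.6, 18.8, 25.1 and 21.1% in control replicates 1 to 4. Myoz2 equalled 3.59, 4.59, 9.21 and 2.55% of Myoz1 in m31 replicates 1 to 4 and 4.18, 3.97, 7.49 and 5.91% in control replicates 1 to 4. In both pairs m31 replicate 3 had the highest share of the slow paralogue among m31 libraries, control replicate 3 the highest among control libraries, and m31 replicate 4 the lowest of all 8. These percentages compare reads, not reads per length. The log2 differences of the ratios were -0.21 ± 0.28 for Mybpc1 over Mybpc2 and -0.23 ± 0.45 for Myoz2 over Myoz1 (SE; exact permutation p = 0.486 and 0.629, adjusted p = 0.686 each over the 4 ratios). Both rested on single libraries: the Mybpc1 ratio was -0.47 without m31 replicate 3 and -0.07 without m31 replicate 4, and the Myoz2 ratio turned to 0.03 without m31 replicate 4.

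**Figure D2:**
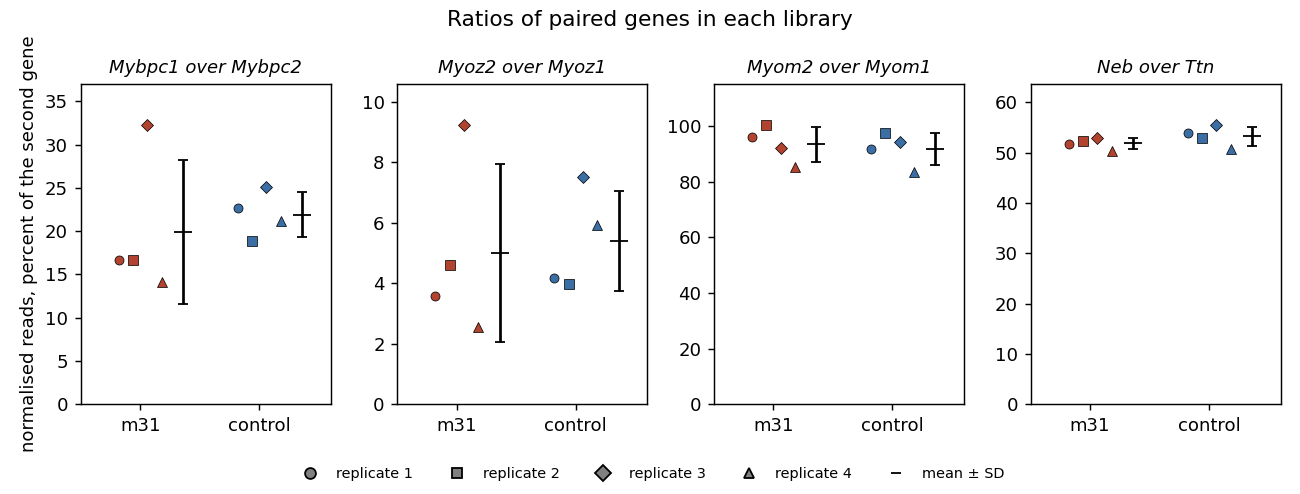
Normalised reads of the first gene as a percentage of the second, in the 4 m31 libraries (left, red) and the 4 control libraries (right, blue), with mean and SD as black bars; every axis starts at 0. The shares of the slow paralogues range from 14.1 to 32.2% (Mybpc1 over Mybpc2) and from 2.55 to 9.21% (Myoz2 over Myoz1), while Neb over Ttn stays between 50.3 and 55.4%.

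Within m31, markers of slow fibres had their highest and lowest levels in the same libraries as these paralogues. The 10 slow fibre markers, all present in every library, summed to 31019, 33114, 42051 and 20048 normalised reads in m31 replicates 1 to 4, and to 35316 to 43999.6 in the control libraries. Their sum was highest in m31 replicate 3 and lowest in m31 replicate 4 within that group, but the control libraries did not keep this order: control replicate 3 was second for both Mybpc1 and Myoz2 and had the lowest sum. All 10 slow fibre markers had negative estimates, as did Mybpc1 and Myoz2. Of the 10, 5 had an unadjusted p under 0.05 by limma, where 6.79% of all genes did (smallest limma adjusted p = 0.627, Tpm3). Other marker lists held such genes too: 4 of 8 tendon, 3 of 8 Schwann cell and nerve, 3 of 10 fibroblast and matrix markers. The count was 3 of 7 for smooth muscle and pericyte and 2 of 8 for skeletal muscle markers. For fast fibre markers it was 1 of 12, and for macrophage markers 1 of 10. It was 0 for heart muscle, endothelial and adipocyte markers. Groups did not overlap for 2 of the 10 slow fibre markers, beside 3.85% of all genes tested. This held for 1 of 12 fast fibre, 1 of 8 skeletal muscle and 1 of 7 smooth muscle and pericyte markers. In the remaining marker lists the count was 0. The slow markers were Tpm3, a slow tropomyosin, and Myh7, the slow myosin heavy chain. Tpm3 had 2797 to 4497 normalised reads in m31 libraries and 5033 to 5631 in control libraries. Myh7 had 2905 to 6188 in m31 libraries and 6393 to 9786 in control libraries (log2 differences -0.52 for Tpm3 and -0.64 for Myh7). Both were named after their values were seen. In whole muscle, fewer fibres of a type and less RNA per fibre cannot be told apart. The part of the slow fibre markers in the spread and the estimates of Mybpc1 and Myoz2 was not tested.

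The genes with the most similar profile over the 8 libraries were looked up for each member among 10701 genes with a mean of at least 100 normalised reads. Likeness was the root mean square difference between log2 values centred on the 8 libraries. For Myoz2, whose own deviation was 0.45 on the log2 scale, the closest genes were Ldhb (0.13), which encodes the heart type subunit of lactate dehydrogenase, Klhl34 (0.16) and Myl2 (0.17), the slow regulatory myosin light chain. Ldhb had 4699, 5366, 7814 and 2714 normalised reads in m31 replicates 1 to 4 and 5217 to 6207 in the control libraries. It was picked for its likeness to Myoz2, so extremes in the same libraries are no separate observation. For Mybpc1, with a deviation of 0.27, they were Mb (0.08), which encodes the oxygen-binding protein myoglobin, Fhl1 (0.11) and Clip4 (0.11). For Myoz1, with a deviation of 0.22, they were Cib2 (0.04), Cdkn2c (0.06) and Selenow (0.06). Neb was the one member with another member, Ttn, among its closest 3 genes, at 0.04 beside a deviation of 0.09. The closest gene was Birc2 for Ttn (0.03, own deviation 0.09), Trap1 for Myom1 (0.01, own 0.08) and Nrbp1 for Des (0.02, own 0.06). It was Ganc for Mybpc2 (0.03, own 0.11) and Kdm4b for Myom2 (0.04, own 0.12). How close a best match would come from the number of genes searched alone was not tested.

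**Figure D3:**
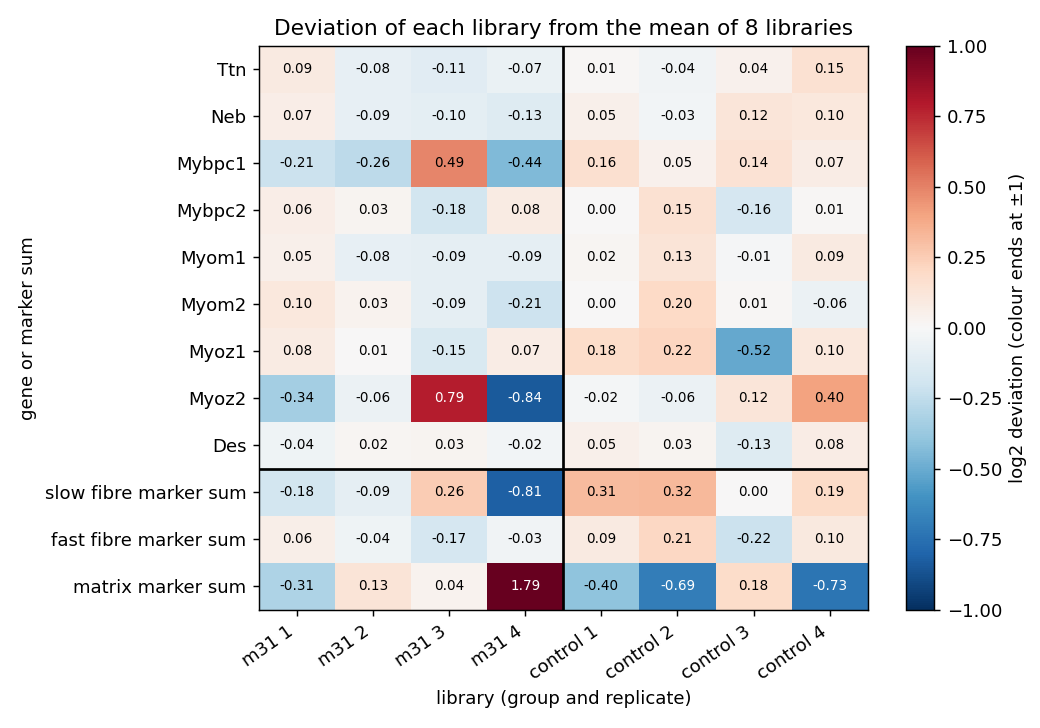
Log2 deviation of each library from the mean of the 8 libraries, for the 9 members and, below the line, for the summed slow fibre, fast fibre and matrix markers; columns are the 4 m31 libraries (left) and the 4 control libraries (right), and colour ends at ±1. Myoz2 reaches 0.79 in m31 replicate 3 and -0.84 in m31 replicate 4, Mybpc1 0.49 and -0.44, while Des stays between -0.13 and 0.08.

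Promoter sequences are shown for Mybpc1 and Myoz2, whose highest and lowest levels fell in the same libraries, for Mybpc2 as the fast paralogue, and for Ttn. Each is the 250 bases before the transcription start in RefSeq (GRCm38.p6), on the gene's strand. Capitals mark matches to an E-box (CANNTG, bound by myogenic factors), the MCAT motif (CATTCC, bound by TEAD factors), the MEF2 box and the CArG box of serum response factor, searched on both strands. No marked matches overlap.
Myoz2, chr3:123034988-123035237, minus strand: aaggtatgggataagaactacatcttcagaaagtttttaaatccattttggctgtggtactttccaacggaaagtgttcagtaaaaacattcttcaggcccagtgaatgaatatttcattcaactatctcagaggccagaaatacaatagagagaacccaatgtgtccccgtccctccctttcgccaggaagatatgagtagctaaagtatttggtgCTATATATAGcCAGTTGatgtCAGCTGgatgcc
Mybpc1, chr10:88605153-88605402, minus strand: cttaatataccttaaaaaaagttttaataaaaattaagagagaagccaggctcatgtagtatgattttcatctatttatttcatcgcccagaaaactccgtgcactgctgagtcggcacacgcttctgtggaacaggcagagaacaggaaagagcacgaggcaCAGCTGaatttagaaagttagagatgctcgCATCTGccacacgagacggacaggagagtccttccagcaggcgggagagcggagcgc
Mybpc2, chr7:44524670-44524919, minus strand: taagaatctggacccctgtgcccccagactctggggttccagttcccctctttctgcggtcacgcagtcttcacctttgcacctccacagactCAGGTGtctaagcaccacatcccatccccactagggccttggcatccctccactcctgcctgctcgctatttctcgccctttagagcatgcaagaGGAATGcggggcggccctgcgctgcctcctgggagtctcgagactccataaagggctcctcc
Ttn, chr2:76982548-76982797, minus strand: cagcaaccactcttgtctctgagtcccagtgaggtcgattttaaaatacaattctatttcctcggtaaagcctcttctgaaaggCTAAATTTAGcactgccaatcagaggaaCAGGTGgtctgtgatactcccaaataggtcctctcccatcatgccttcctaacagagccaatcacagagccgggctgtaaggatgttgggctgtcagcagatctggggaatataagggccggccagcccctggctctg
The Myoz2 window held a MEF2 box starting 33 bases before the start and E-boxes at 22 and 12 bases before it, and its last 28 bases lie in a GENCODE exon of Myoz2. The Mybpc1 window held E-boxes at 87 and 57 bases and no MEF2 box, and 188 of its bases lie in exons of Gm48752, annotated on the opposite strand. The Mybpc2 window held an E-box at 157 bases and an MCAT motif on the opposite strand at 62 bases, and the Ttn window a MEF2 box at 166 and an E-box at 138 bases. Among 32851 windows of the same length, 66.2% held an E-box, 12.6% an MCAT motif, 1.69% a MEF2 box and 1.47% a CArG box. These are letter matches in short windows and say nothing on binding in these samples.

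At the M-band, Myom1 and Myom2 both had small negative estimates that did not pass the test. Myom1, which encodes the myomesin found in all striated muscle, had 56431, 51422, 51255 and 51140 normalised reads in m31 replicates 1 to 4, against 55129, 59507, 54027 and 57921 in control replicates 1 to 4. Of the m31 libraries 3 lay below every control library, and replicate 1 lay within the control range. The log2 difference was -0.11 ± 0.09 (SE, limma adjusted p = 0.845), with an interval from 18.7% lower to 5.91% higher. Myom2, which encodes the M-protein of fast fibres and heart, had 54143, 51531, 47278 and 43559 normalised reads in m31 replicates 1 to 4 and 50499, 57912, 50896 and 48449 in control replicates 1 to 4. The 2 lowest libraries were m31 replicates 4 and 3, and m31 replicates 1 and 2 lay inside the control range. Its log2 difference was -0.08 ± 0.10 (SE, limma adjusted p = 0.900), with an interval from 19.2% lower to 10.5% higher. Myom2 reads equalled 85.2 to 100.2% of Myom1 reads in m31 libraries and 83.6 to 97.3% in control libraries (log2 difference of the ratio 0.03 ± 0.07, SE; exact permutation p = 0.686, adjusted p = 0.686 over the 4 ratios).

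Desmin, the intermediate filament protein around the Z-disc, was the steadiest member over the 8 libraries. Des had 108589, 113154, 113872 and 109894 normalised reads in m31 replicates 1 to 4 and 115599, 113740, 102052 and 117777 in control replicates 1 to 4. All 4 m31 libraries lay inside the control range, whose lowest library was again replicate 3. The log2 difference was -0.01 ± 0.10 (SE, limma adjusted p = 0.987), with an interval from 14.4% lower to 15.2% higher. Its coefficient of variation over the 8 libraries was 4.39%, against 33.4% for Myoz2, the most variable member.

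**Figure D4:**
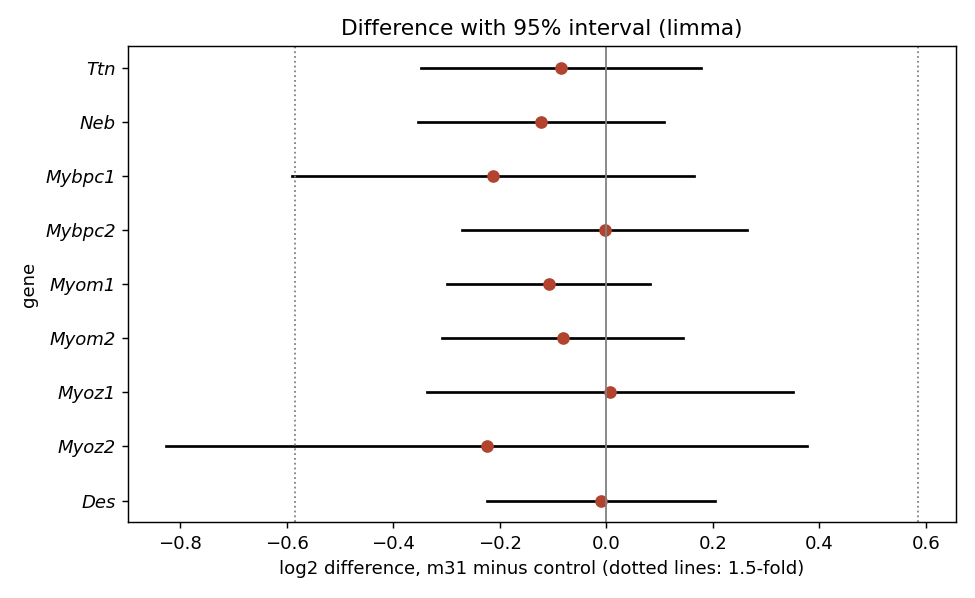
Log2 difference of each member, m31 minus control, as points with the 95% interval from limma as lines; the solid line marks 0 and the dotted lines a 1.5-fold change in either direction. All 9 intervals include 0, and those of Mybpc1 and Myoz2 cross the dotted line on the lower side.

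The precision of the comparison differed between members. For 7 of the 9, the interval excluded a change of 1.5-fold in either direction, the exceptions being Mybpc1 and Myoz2, and for all 9 it excluded a change of 2-fold. These intervals are per gene and not adjusted for the number of genes. They use limma's moderated variance, which is drawn towards that of genes of similar level. This narrows the interval of a gene as variable as Myoz2 (within-group SD 0.50 on the log2 scale). It widens the intervals of the steadiest members, whose within-group SD was 0.07 for Myom1 and Des, 0.08 for Neb and 0.09 for Ttn. Intervals without this moderation were not computed, so the 2-fold bound for Myoz2 is given for the moderated interval only. Among the 3475 genes with a mean of at least 1000 normalised reads, the within-group spread on the log2 scale was at percentile 6.01 for Myom1, 7.14 for Des, 10.9 for Neb and 14.6 for Ttn. It was at percentile 40.5 for Mybpc2 and for Myom2. The slow paralogues and Myoz1 were at the other end, at percentile 98.1 for Myoz2, 91.2 for Mybpc1 and 87.7 for Myoz1.

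Levels of different genes were compared per kilobase of annotated exon, as the union of all GENCODE exons of a gene. Mybpc2 was highest at 56032 ± 4420 normalised reads per kb (SD over the 8 libraries), followed by Des at 29791 ± 1309 and Myoz1 at 27385 ± 4032, whose ranges overlapped. Mybpc1 followed at 9194 ± 1885. Neb at 5773 ± 390, Myom2 at 5708 ± 491 and Myom1 at 5221 ± 307 had overlapping ranges from each to the next. Ttn stood at 2501 ± 160 and Myoz2 was lowest at 755 ± 253. Apart from these overlaps, neighbours in the order did not overlap in any of the 8 libraries. The union counts exons that this muscle may not use, which lowers the values of genes with many alternative exons such as Ttn.

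**Figure D5:**
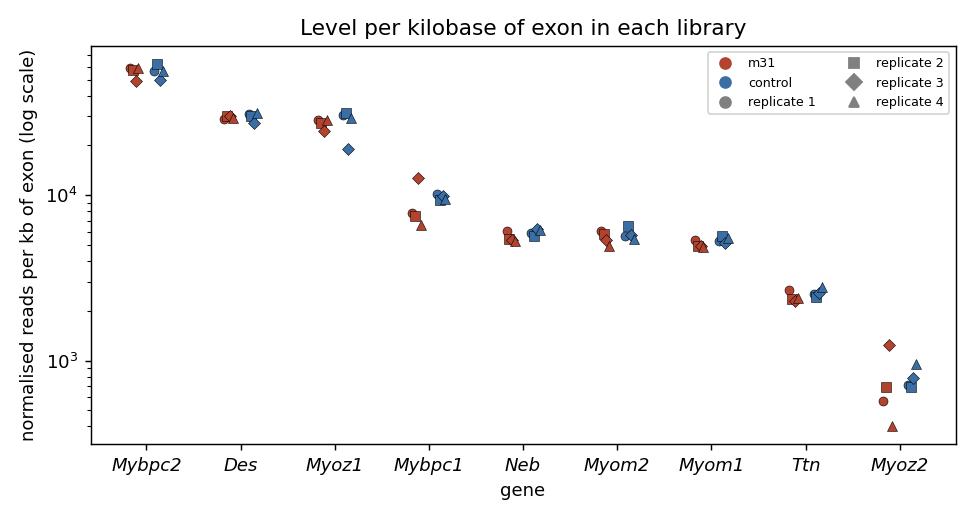
Normalised reads per kilobase of exon (log axis) of each member in the 4 m31 (red, left) and 4 control (blue, right) libraries, with genes ordered by their mean. Levels span from 755 for Myoz2 to 56032 for Mybpc2, and the m31 and control points of each gene overlap.

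Reads from overlapping genes could not be separated, because the strand setting of the counting is not given in the sources used here. Exons of Des share 220 bases with the antisense gene Gm15179, which had at most 525 normalised reads, and exons of Myom1 share 207 bases with Myl12a, which had at most 1384. Among the other members, Neb, Mybpc1, Mybpc2 and Ttn share 45 to 453 exon bases with genes on the opposite strand, of which those measured had at most 86.2 normalised reads.

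The partners of these proteins were described from 5 wider lists of sarcomere genes, 73 genes in all, of which 71 were tested. By limma 0 of the 71 passed over all genes and 3 had an unadjusted p under 0.05 (4.23%, where 6.79% of all genes did). edgeR on the recovered reads called 0 of 70, with 4 at an unadjusted p under 0.05 (7.02% of all genes), and DESeq2 0 of 72, with 6 (5.38% of all genes). The groups did not overlap for 5 of the 71 (7.04%, beside 3.85% of all genes). Estimates were positive for 26 and negative for 45, with a median log2 difference of -0.08.

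Among 11 tested genes of the thick filament and M-band, 0 passed in either direction and the median log2 difference was -0.05. Mybpc3, the cardiac myosin-binding protein C, stood at 152 to 171 normalised reads in m31 libraries and 25.3 to 181 in control libraries, its low values coming from control replicates 3 and 4 (log2 difference 1.04, adjusted p = 0.745). The 7 heart muscle markers, of which Mybpc3 is one, summed to 1468 to 1707 normalised reads in the m31 libraries and to 1654, 2320, 968 and 730 in control replicates 1 to 4, lowest in the same control libraries; their part was not tested. Trim55, a ubiquitin ligase that binds titin at the M-band, had a log2 difference of -0.16 (adjusted p = 0.765).

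Among 13 genes that bind titin or sense stretch, 0 passed in either direction, with 6 positive and 7 negative estimates and a median log2 difference of -0.01. Tcap, the cap that joins titin molecules at the Z-disc, had 42999, 52897, 61819 and 55838 normalised reads in m31 replicates 1 to 4, against 88210, 88664, 46313 and 59380 in control replicates 1 to 4. Control replicates 1 and 2 lay far above all other libraries, and the log2 difference was -0.36 ± 0.21 (SE, limma adjusted p = 0.785). The LIM domain genes Fhl3 and Fhl2 had log2 differences of 0.38 and -0.23 (adjusted p = 0.747 and 0.803).

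Among 28 Z-disc genes, 0 passed in either direction, with 11 positive and 17 negative estimates and a median log2 difference of -0.04. Bag3, a co-chaperone that helps to clear damaged Z-disc proteins, had 5178, 5652, 6875 and 4635 normalised reads in m31 replicates 1 to 4, against 3705, 3819.5, 4416 and 5024 in control replicates 1 to 4. The groups overlapped through m31 replicate 4 and control replicate 4 (log2 difference 0.39 ± 0.13, SE, limma adjusted p = 0.669). Ppp3ca and Ppp3cb encode catalytic subunits of calcineurin, which calsarcins bind, and both had groups that did not overlap, with m31 at the lower values. Ppp3ca had 6517 to 7059 normalised reads in m31 libraries and 7288 to 8462 in control libraries (log2 difference -0.21 ± 0.08, SE, limma adjusted p = 0.698). Ppp3cb, named for its groups that did not overlap after its values were seen, had a log2 difference of -0.13 (limma adjusted p = 0.786). Nexn, which encodes the actin-binding protein nexilin, had a log2 difference of -0.31 (limma adjusted p = 0.736).

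Among 14 genes of nebulin and thin filament length, 0 passed in either direction, with 4 positive and 10 negative estimates and a median log2 difference of -0.07. Tmod1, a tropomodulin that caps the pointed end of thin filaments, had groups that did not overlap, with the m31 libraries higher, at 5139 to 5666 normalised reads against 4641 to 5009 (log2 difference 0.15 ± 0.07, SE, limma adjusted p = 0.747). Klhl41, a kelch protein that stabilises nebulin, had 15457 to 17539 in m31 libraries and 17050 to 19435 in control libraries (log2 difference -0.17, limma adjusted p = 0.735). Cfl2, the muscle cofilin, had a log2 difference of -0.15 (limma adjusted p = 0.825).

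Among 11 tested genes of intermediate filaments and their anchors, 0 passed in either direction, with 3 positive and 8 negative estimates and a median log2 difference of -0.12. Nes, which encodes nestin, a filament partner of desmin that is concentrated at neuromuscular junctions, had 1444, 1382, 1676 and 1647 normalised reads in m31 replicates 1 to 4, against 1706, 1954, 2547 and 1755 in control replicates 1 to 4. All m31 libraries were below all control libraries, though by a narrow margin, and control replicate 3 stood highest (log2 difference -0.36 ± 0.13, SE, limma adjusted p = 0.698). The 8 Schwann cell and nerve markers had negative estimates as well, and their sums were 5371 to 7893 normalised reads in m31 libraries and 5794 to 10475 in control libraries, with all 8 present; their part was not tested. Sync, which encodes syncoilin, a desmin-binding protein, also had groups that did not overlap, with m31 higher, at 801 to 1033 against 705 to 792 (log2 difference 0.21, limma adjusted p = 0.752). Dtna, which encodes alpha-dystrobrevin, had a log2 difference of -0.15 (limma adjusted p = 0.772).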

How the data were processed

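Libraries were prepared from gastrocnemius RNA with a NEBNext Ultra kit, 4 per guide, per the labels' protocols. The signal deposited by the authors is reads per gene divided by a size factor per library. Per the submitters' processing notes, STAR and DESeq2 were used (no versions), with the human build GRCh38.p12 named, although the deposited identifiers are mouse. Counting program, annotation and filters: not given in the sources used here. Of 11 value columns, 8 match library names in the labels and 3 were not used. The 5 construct entries were kept out of tests and totals. Values came out as whole multiples of 1 read (100% within 0.01 of a read), so reads were recovered.

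Genes with a mean of at least 10 were tested on the log2(value + 1) scale by limma 3.58.1 under R 4.3.3, using its moderated test with a mean trend and group as the one term. Benjamini-Hochberg adjustment ran over all these genes, and the threshold was 0.05. Differences are m31 minus control. Ratios were compared by exact permutation tests. Alternatives were each library left out, 2 libraries left out together, the replicate number as a block, other minima, pseudocounts, scalings and library weights, edgeR 4.0.16 and DESeq2 1.42.0 on recovered reads. The limma and edgeR fits were also run on simulated counts, and the DESeq2 fit was not. No replicates were alike within sampling noise (chi-square per degree of freedom at least 12.97). Symbols, coordinates and exon lengths are from GENCODE M21 (GRCm38), promoters from RefSeq (GRCm38.p6; 6 of 9 members had an entry).

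The members and lists were chosen with earlier results of these data known. Genes named are the 9 members, Lama1, the 3 genes per wider list with the smallest unadjusted p and the 3 most similar genes per member, of which a part is printed; others are said to have been named after their values were seen. A gene of the wider lists is not reported here. Mybphl, listed among thick filament genes, was not analysed here, Krt8 was under the minimum, and Cavin4 was matched through its synonym.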

Additional observations from a re-analysis of the deposited data

Results flagged for a closer look

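In 5 of 58 groups of 4 libraries (8.62%), taken over the members, Lama1, the ratios and the named list genes on the log2 scale, 1 library lay far from the other 3 by Dixon's test; chance flags about 1 in 20 such groups. In m31 replicate 1, Myom1 was high at 56431 normalised reads while m31 replicates 2 to 4 held 51140 to 51422, and Tmod1 was high at 5666 while they held 5139 to 5161. In m31 replicate 3, Klhl41 was high at 17539 normalised reads, and the remaining m31 libraries held 15457 to 15787. In control replicate 3, Myoz1 was low at 35851 normalised reads and Trim55 at 1720, where the remaining control libraries held 55092 to 59533 of Myoz1 and 1948 to 1998 of Trim55.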

How the results depend on the processing

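None of the 9 members passed the threshold under any of the 19 alternatives run, which were leaving out libraries, the replicate block, other minima, pseudocounts and scalings, library weights, DESeq2 and edgeR, and Lama1 passed under all of them. The log2 differences of Ttn, Neb, Mybpc1, Myom1 and Myom2 stayed negative throughout, though their size varied: with libraries left out Ttn was -0.13 (without m31 replicate 1) to -0.048 (without control replicate 4), Neb -0.17 to -0.080, Mybpc1 -0.41 to -0.089, Myom1 -0.14 to -0.084 and Myom2 -0.13 (without m31 replicate 1) to -0.026 (without m31 replicate 4), and Myom2 was -0.029 without control replicate 2. With quantile normalisation Neb was -0.024, Myom1 -0.051, Myom2 -0.030, Ttn -0.082 and Mybpc1 -0.22. Recentred on library medians, Neb was -0.16, Myom1 -0.14, Myom2 -0.12, Ttn -0.12 and Mybpc1 -0.25. Differences near 0 changed sign: Mybpc2 was 0.074 with quantile normalisation. Myoz1 was -0.029 recentred on library medians, -0.13 with library weights, -0.017 with DESeq2 and -0.020 with edgeR. With libraries left out (each in turn, or m31 replicate 4 together with control replicate 3), Mybpc2 was -0.086 to 0.057, Myoz1 -0.19 to 0.080, Myoz2 -0.52 to 0.022, Des -0.055 to 0.014, the ratio of Mybpc1 to Mybpc2 -0.47 to -0.0026, that of Neb to Ttn -0.061 to -0.0040, that of Myoz2 to Myoz1 -0.58 to 0.21, that of Myom2 to Myom1 -0.017 to 0.083, and the list medians were -0.12 to 0.037 for titin-binding genes, -0.086 to 0.064 for the thick filament and M-band (positive without m31 replicate 3, m31 replicate 4 or control replicate 2) and -0.16 to 0.015 for intermediate filaments (-0.021 without m31 replicate 4, positive without it and control replicate 3). The cause of these sign changes was not tested. Genes past the threshold numbered 1 in all, 1 to 2 with 1 library left out (2 without m31 replicate 1 or control replicate 4), 3 without m31 replicate 4 and control replicate 3, 1 with edgeR and 24 with DESeq2. Same-numbered libraries deviated from their group means with correlations across genes of 0.046, -0.047, -0.13 and -0.18, so no pairing by number was seen in the values. With the replicate block 1 gene passed; the estimates cannot change under a block in this balanced design, and the adjusted p of the members stayed above the threshold. The parts of library spread and of limma's moderated variance in the width of the members' intervals were not tested.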
